A study of Homo sapiens with 4 samples.

Results

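The ETS genes examined here are ERG, ETS1, ETS2, ETV1, ETV4, ETV5, ETV6, SPDEF, ELF3 and EHF, 10 of the 28 genes of the ETS transcription factor family and 10 of the 60308 gene identifiers counted. They were taken from a list of gene symbols chosen with earlier results of these data known. The symbols were matched to Ensembl identifiers through GENCODE 29. Their RNA was measured by RNA-seq in VCaP, a human prostate cancer cell line whose ERG is expressed from a TMPRSS2-ERG gene fusion. Cells in serum-containing DMEM received a non-targeting siRNA in the group siNTC. In the group siZBTB7A they received an siRNA targeting ZBTB7A, which encodes a zinc finger repressor of transcription. Both groups share the cell line, its fusion and the transfection itself, and an untransfected group was not analysed here. Each group had 2 count tables, numbered 1 and 2, and nothing in the labels ties them to separate cultures.

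ETS factors share a winged-helix DNA-binding domain, the ETS domain, that reads a short site built around the letters GGAA. They differ in expression, in partner proteins and in whether they activate or repress. In the fusion, the androgen-responsive promoter region of TMPRSS2 drives ERG, a gene that is normally quiet in prostate epithelium. SPDEF, ELF3 and EHF are ETS genes of epithelial cells, and loss of EHF has been linked to dedifferentiation in prostate tumours. ETV1, ETV4 and ETV5 form the PEA3 group and are also known from gene fusions in prostate cancer.

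The tables held 5737738 and 5927656 gene reads for siNTC and 5556061 and 5745862 for siZBTB7A. Over all genes compared, tables of the same group differed by no more than read sampling (chi-square per degree of freedom 0.993 and 0.995, against 3.50 to 3.64 across groups). Among genes of at least 10000 reads, which include no ETS gene, the siNTC tables differed by more than read sampling (1.53 over 63 genes, chi-square p = 0.00452), and the siZBTB7A tables gave 1.28 (59 genes, p = 0.0734). The tables of a group were counted as 1 library, and no result below has a replicate check. A gene is said to have passed the test where edgeR's quasi-likelihood test, adjusted by Benjamini-Hochberg over all 12848 genes with enough reads, gave a value under 0.05; this compares 2 libraries, not 2 conditions. CPM is a gene's reads per 1000000 gene reads of the library after TMM scaling, and each fold is siZBTB7A over siNTC from the summed tables with an exact 95% interval for counting error only. ZBTB7A itself stood at 15.5 and 19.2 CPM in the siNTC tables and 12.8 and 13.0 CPM in the library labelled siZBTB7A, a fold of 0.743 (0.597 to 0.924). The tables of the groups did not overlap, but the gene did not pass the test (edgeR adjusted p = 0.0969), which limits how far the label is checked. Reads in no annotated exon on the counted strand made up 20.6% of each siNTC table and 23.1% and 23.2% of the siZBTB7A tables. They can include reads within introns of genes. Reads mapping to several places made up 24.5% and 24.4% against 22.3% and 22.2%. The part of both kinds of reads in the results was not tested. Luminal prostate markers summed to 5676 to 5940 CPM per table, with all 9 tested, 4 of them higher and 0 lower in siZBTB7A, where 2.25% of all tested genes were higher and 19.3% of those at a mean of at least 100 CPM passed in either direction. Leukocyte and endothelial markers summed to 0.333 to 2.37 CPM, without the endothelial marker PECAM1, which was not matched. Most leukocyte marker reads were of CD14, with 17 summed reads in siNTC and 23 in siZBTB7A, and VWF had 4 and 9. CD3E, LYZ, CDH5 and CLDN5 had no read. Fibroblast markers summed to 13.5 to 17.7 CPM, most of it LUM. COL1A1 had 6 summed reads in siNTC and 12 in siZBTB7A, and COL1A2 had no read. Basal markers summed to 120 to 139 CPM, nearly all of it ITGA6. KRT14 had 20 summed reads in siNTC and 15 in siZBTB7A, and KRT5 had no read. In bulk RNA, fewer cells of a type cannot be told from less RNA per cell.

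The sequences just upstream of transcription starts are shown for the 3 abundant members, since their RNA levels are what the results turn on. For 7 of the 10 members RefSeq (GRCh38.p14) gave such a window, 17 windows in all. Each window is 240 bases long and ends 10 bases before the annotated start, printed 5′ to 3′ on the gene's strand. Capitals mark CGGAAG or AGGAAG, 2 common cores of ETS sites, searched on both strands (CTTCCG and CTTCCT on the other). The cores differ in their first letter, and a match of one can run into a match of the other. The first ERG window is the most upstream of those RefSeq gave for the gene and the second lies at a start inside the gene. ERG from the fusion does not use its own upstream start.
EHF, chr11:34624007-34624246, strand +: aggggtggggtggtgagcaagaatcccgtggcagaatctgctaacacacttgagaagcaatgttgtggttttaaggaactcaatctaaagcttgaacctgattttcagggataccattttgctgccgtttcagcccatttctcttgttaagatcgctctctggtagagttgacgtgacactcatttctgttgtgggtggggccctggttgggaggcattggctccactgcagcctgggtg
SPDEF, chr6:34556340-34556579, strand -: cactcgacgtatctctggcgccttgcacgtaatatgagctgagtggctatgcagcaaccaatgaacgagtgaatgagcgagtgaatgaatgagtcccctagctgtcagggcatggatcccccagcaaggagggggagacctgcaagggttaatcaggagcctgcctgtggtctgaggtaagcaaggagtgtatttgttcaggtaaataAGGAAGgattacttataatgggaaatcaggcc
ERG, chr21:38660678-38660917, strand -: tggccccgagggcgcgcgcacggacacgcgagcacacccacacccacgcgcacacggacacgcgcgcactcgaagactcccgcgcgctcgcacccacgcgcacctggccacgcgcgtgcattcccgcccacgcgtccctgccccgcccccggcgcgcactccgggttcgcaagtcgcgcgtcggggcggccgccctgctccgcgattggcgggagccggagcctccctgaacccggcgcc
ERG, chr21:38498515-38498754, strand -: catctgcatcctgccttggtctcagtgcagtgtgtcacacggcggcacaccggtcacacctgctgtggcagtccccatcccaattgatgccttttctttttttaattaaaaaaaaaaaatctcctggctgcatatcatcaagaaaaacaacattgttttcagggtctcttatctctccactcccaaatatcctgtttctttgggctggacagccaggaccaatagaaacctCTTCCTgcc

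The EHF window held neither core, and the SPDEF window held AGGAAG 1 time. Of the 17 member windows, 0 held CGGAAG and 6 held AGGAAG, from 4 of the 7 genes. Of all 35116 such windows in RefSeq, 15.4% held CGGAAG and 27.5% held AGGAAG. These are matches of letters, not measured binding, and several windows of a gene can overlap.

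Among the 10 genes, ERG, SPDEF and EHF were abundant, ELF3, ETS2 and ETV6 were low to moderate, and ETS1, ETV1, ETV4 and ETV5 were at or near the limit of counting. ERG, SPDEF and EHF together took 71.7% of all reads on the 28 ETS genes in siNTC (exact 95% interval 71.0% to 72.5%) and 72.6% in siZBTB7A (71.8% to 73.4%). Only EHF passed the test, and it was lower in siZBTB7A. Of the 6 members with enough reads to test, 0 were higher and 1 was lower, with a median fold of 0.966. Over all tested genes 4.97% passed (2.25% higher and 2.72% lower) and the median fold was 1.001. Depth matters for such a call: among the 1590 tested genes at a mean of at least 100 CPM, 19.3% passed, and 1 of the 3 members at that level did.

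**Figure D1:**
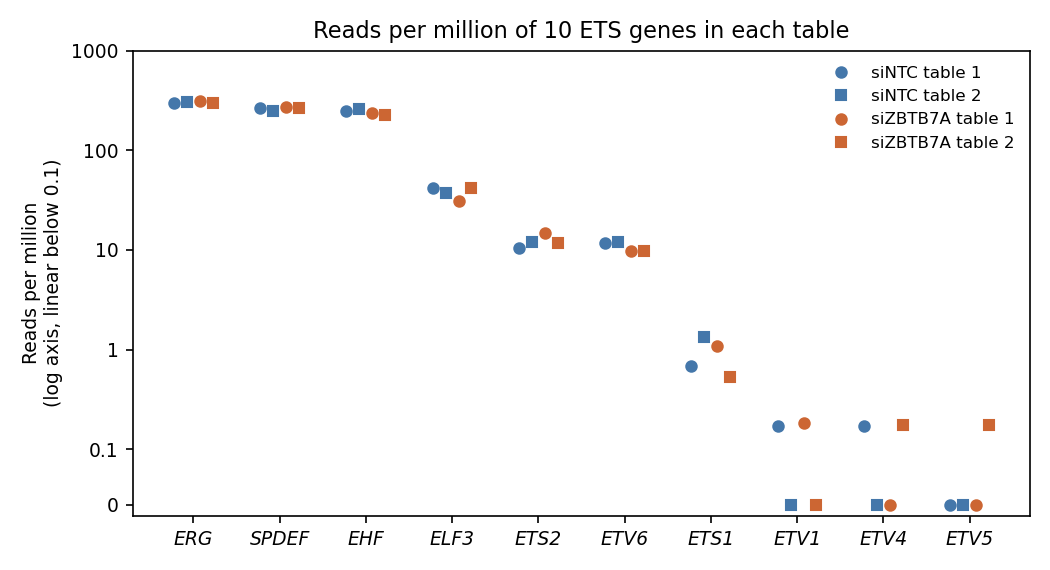
Counts as CPM (vertical axis, logarithmic and linear below 0.1) of the 10 ETS genes in each of the 4 tables; circles are the first and squares the second table of a group. ERG, SPDEF and EHF lie between 226 and 316 CPM, and ETV1, ETV4 and ETV5 show at most 1 read per table.

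ERG, the fusion-driven oncogene, was counted with 1749 and 1822 reads in siNTC, and with 1736 and 1684 in siZBTB7A. In CPM these were 301 and 303 against 316 and 297, so the siZBTB7A tables lay on both sides of the controls. The fold interval of 0.967 to 1.06 places any difference between the libraries within a few percent in either direction, at the depth of this gene. Gene counts do not tell transcripts of the fusion from those of an unrearranged allele. TMPRSS2, whose promoter drives the fusion, stood at 325 and 319 CPM in siNTC and 325 and 316 CPM in siZBTB7A, a fold of 0.995 (0.951 to 1.04). Both genes thus gave intervals that included 1, and neither passed the test (edgeR adjusted p = 0.829 for ERG and 0.947 for TMPRSS2).

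The genes most like ERG were sought among the 217 tested protein-coding genes within 20% of its mean CPM. The 3 with the nearest log2 fold over the 2 groups were CTNNA1, which encodes alpha-catenin, PSMA7, a proteasome subunit gene, and FAM198B. Their folds were 1.014, 1.016 and 1.014. With 2 groups this likeness is only a likeness of 1 fold each.

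EHF, an epithelial ETS factor gene, was the member that passed the test. It had 1459 and 1557 reads in siNTC and 1303 and 1284 in siZBTB7A, or 251 and 259 CPM against 237 and 226 CPM. Both siZBTB7A tables lay below both controls. The fold was 0.908 (0.861 to 0.957), a log2 fold of -0.14 (edgeR adjusted p = 0.0114). The call was lost without the second siNTC table (adjusted p = 0.198), without the second siZBTB7A table (adjusted p = 0.280) and with DESeq2 (adjusted p = 0.192), where the log2 fold was -0.12, -0.11 and -0.14. Measured against ERG in the same table, which needs no scaling, EHF had 0.834 and 0.855 reads per ERG read in siNTC and 0.751 and 0.763 in siZBTB7A. Its summed ratio was 0.845 (0.804 to 0.887) in siNTC and 0.756 (0.718 to 0.796) in siZBTB7A, and these intervals did not overlap. The ratio rests on the same EHF reads as the fold, so apart from scaling it is no separate check. Its intervals too cover counting error only.

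SPDEF, a luminal and secretory-cell ETS factor gene, had 1549 and 1489 reads in siNTC and 1506 and 1501 in siZBTB7A. These came to 267 and 248 CPM against 274 and 265 CPM, with the second siZBTB7A table inside the control range. The fold was 1.048 (0.996 to 1.10), which did not pass (edgeR adjusted p = 0.334). With an offset for transcript GC content and length the log2 fold went from 0.07 to -0.05. The ratio of EHF to SPDEF reads was 0.993 (0.944 to 1.04) in siNTC and 0.860 (0.816 to 0.907) in siZBTB7A. By table it was 0.942 and 1.05 in siNTC and 0.865 and 0.855 in siZBTB7A, so the siZBTB7A tables were lower but the siNTC tables differed from each other by more than the first of them did from siZBTB7A. With the offset the log2 folds of EHF and SPDEF were -0.13 and -0.05, closer to each other than without it.

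ELF3, the third epithelial member, had 243 and 226 reads in siNTC and 170 and 237 in siZBTB7A. In CPM the controls were 41.8 and 37.6, and the siZBTB7A tables were 31.0 and 41.8, one below the controls and the other inside their range. The fold was 0.919 (0.802 to 1.05) and did not pass (edgeR adjusted p = 0.570). Without the first siZBTB7A table the log2 fold turned from -0.12 to 0.07, so 1 table decided its direction.

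ETS2, which encodes a close relative of ETS1 and lies on chromosome 21 between ERG and TMPRSS2, had 61 and 72 reads in siNTC and 81 and 66 in siZBTB7A. The CPM values were 10.5 and 12.0 against 14.8 and 11.6, and the groups overlapped. Its fold was 1.17 (0.919 to 1.49; edgeR adjusted p = 0.535). ETV6, a repressor of the family, had 68 and 73 reads in siNTC and 54 and 55 in siZBTB7A, or 11.7 and 12.2 CPM against 9.84 and 9.70 CPM. The groups did not overlap for ETV6, but its fold of 0.818 (0.631 to 1.06) did not pass (edgeR adjusted p = 0.422). Of the 6 tested members 2, EHF and ETV6, had tables that did not overlap between groups, where 46.9% of all tested genes did.

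ETS1 had 4 and 8 reads in siNTC and 6 and 3 in siZBTB7A, too few to test, with a ratio of 0.794 (0.295 to 2.05). ETV1 had 1 read in the first table of each group and none in the second. ETV4 had 1 read in the first siNTC table and 1 in the second siZBTB7A table, and ETV5 had 1 read in all, in the second siZBTB7A table. With at most 1 read per group, no fold is given for the PEA3 genes. For ETV5 the exact 95% interval of the count of 0 in the summed siNTC tables reached 0.312 CPM. For a gene with 1 read the exact 95% interval reached 0.472 CPM in siNTC and 0.499 CPM in siZBTB7A. A change of the PEA3 genes within these limits was not detectable at this depth.

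Levels can be ranked between genes only per length, here as RPKM, the CPM divided by the length in kilobases of the longest GENCODE 29 transcript. In siNTC SPDEF was highest at 136 RPKM (131 to 141), then EHF at 81.1 (78.2 to 84.0) and ERG at 60.1 (58.1 to 62.1). The first 3 places of the whole family went to these members, and their intervals did not overlap. In siZBTB7A they kept the same order, at 142, 73.6 and 60.9 RPKM. Among the other members ELF3 followed at 7.95 RPKM (7.25 to 8.70), ETS2 at 2.86 (2.395 to 3.39) and ETV6 at 1.99 (1.68 to 2.35). ETS1 stood at 0.198 (0.102 to 0.345), which overlapped ETV4 at 0.0349 (0.000882 to 0.194), and ETV4, ETV1 and ETV5 could not be ordered. With the union of all exons as the length, SPDEF, EHF and ERG were at 134, 58.2 and 39.8 RPKM, in the same order. The levels thus depend on the transcript assumed. Lengths of fusion transcripts were not tried, and a shorter ERG transcript would raise its level, so the place of ERG rests on the lengths used.

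The 18 other ETS genes held 1 that passed the test. Of these 18, 9 had enough reads, and 0 were higher and 1 was lower, with a median fold of 1.016. Over all tested genes 4.97% passed. The lower gene was GABPA, which encodes the DNA-binding subunit of GA-binding protein, an activator of genes for mitochondrial proteins. It had 230 and 222 reads in siNTC and 165 and 175 in siZBTB7A, or 39.6 and 37.0 CPM against 30.1 and 30.9 CPM. Its fold was 0.796 (0.690 to 0.918; edgeR adjusted p = 0.0378). The call was lost in 7 of the alternatives, among them each left-out table (log2 fold -0.38 to -0.28, adjusted p = 0.0730 to 0.253). The genes for the partner subunits GABPB1 and GABPB2 had folds of 0.939 (0.830 to 1.06) and 0.771 (0.582 to 1.02) and did not pass.

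The ELK genes encode factors that work with SRF downstream of MAP kinases. ELK1 had a fold of 1.071 (0.918 to 1.25), ELK4 of 0.915 (0.829 to 1.01) and ELK3 of 0.552 (0.322 to 0.924) from 46 and 24 reads, and none of these passed the test. ELF1, ELF2 and ELF5 had folds of 1.016, 0.854 and 1.16, and the repressor genes ERF and ETV3 both had a fold of 1.058, with no call among them. The remaining 9 were not tested. FEV had 9 and 12 summed reads, ETV2 15 and 18, ETV7 4 and 8, ELF4 7 and 9, and SPIB 3 and 2. FLI1 and SPI1, ETS genes of endothelial and blood cells, had no read on the main strand in any table, and neither had SPIC and ETV3L.

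**Figure D2:**
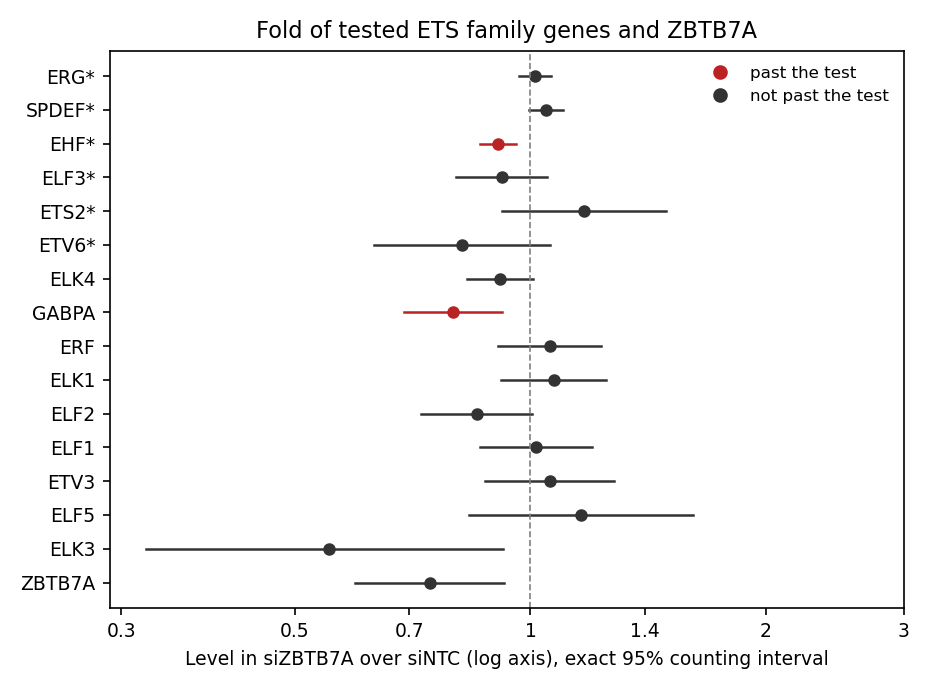
Fold of siZBTB7A over siNTC (horizontal axis, logarithmic) with its exact 95% counting interval for the 15 tested ETS genes, where an asterisk marks the 6 tested members, and for ZBTB7A. EHF at 0.908 and GABPA at 0.796 passed the test, both below 1, while ERG is at 1.014.

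The plot of log2 fold against abundance sets the ETS genes among all tested genes. EHF, ERG and SPDEF lie close together in abundance, at a mean of 244, 304 and 263 CPM, and of the 3 EHF is the one past the test. ETS2 and ETV6, at 12.2 and 10.9 CPM, had larger log2 folds (0.23 and -0.29) than EHF, and neither passed.

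**Figure D3:**
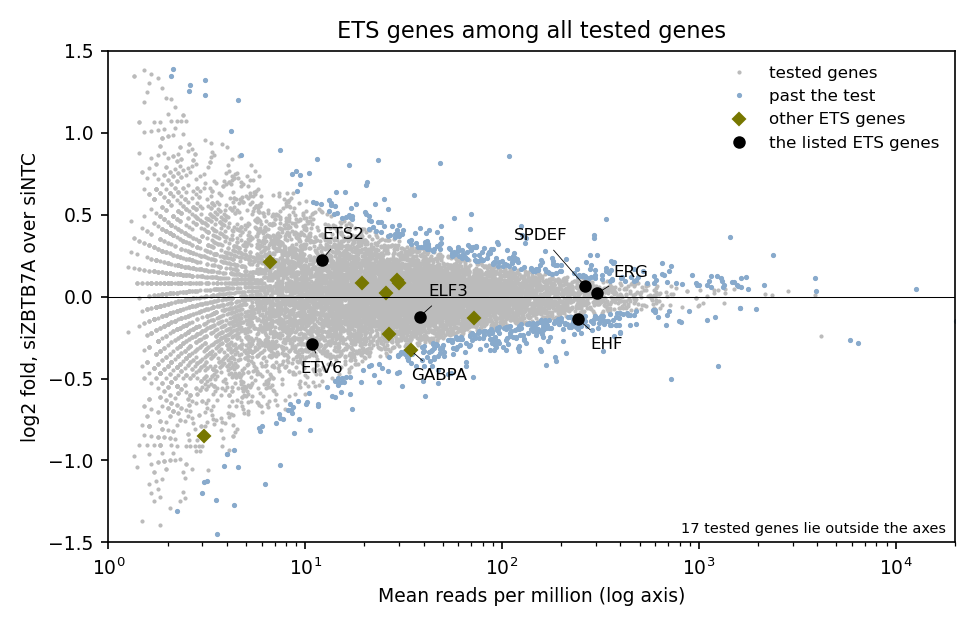
The log2 fold of siZBTB7A over siNTC (vertical axis) against mean CPM (horizontal axis, logarithmic) for tested genes, with those past the test in blue, the 6 tested members as black circles and the 9 other tested ETS genes as diamonds; 17 tested genes lie outside the axes. EHF at -0.14 and GABPA at -0.33 lie below 0, and ERG at 0.02 near it.

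ERG and TMPRSS2 lie on chromosome 21 with the genes from ETS2 onward between them. Of 16, 13 were tested, and 0 were higher and 0 were lower by edgeR (2 at an unadjusted p under 0.05, PSMG1 and IGSF5; no gene of this list passed under any alternative run). The median fold was 1.045. Over all tested genes 4.97% passed, and 2303 of the 12848 had an unadjusted p under 0.05 by edgeR. PSMG1, a proteasome assembly gene, was at 1.26 (1.04 to 1.53) and IGSF5 at 1.62 (1.04 to 2.53). The deepest of them after TMPRSS2 were BRWD1, a bromodomain gene, at 0.955 (0.908 to 1.004), and HMGN1, which encodes a nucleosome-binding protein, at 1.045 (0.991 to 1.10). The 3 genes not tested were LCA5L, SH3BGR and MX2.

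**Figure D4:**
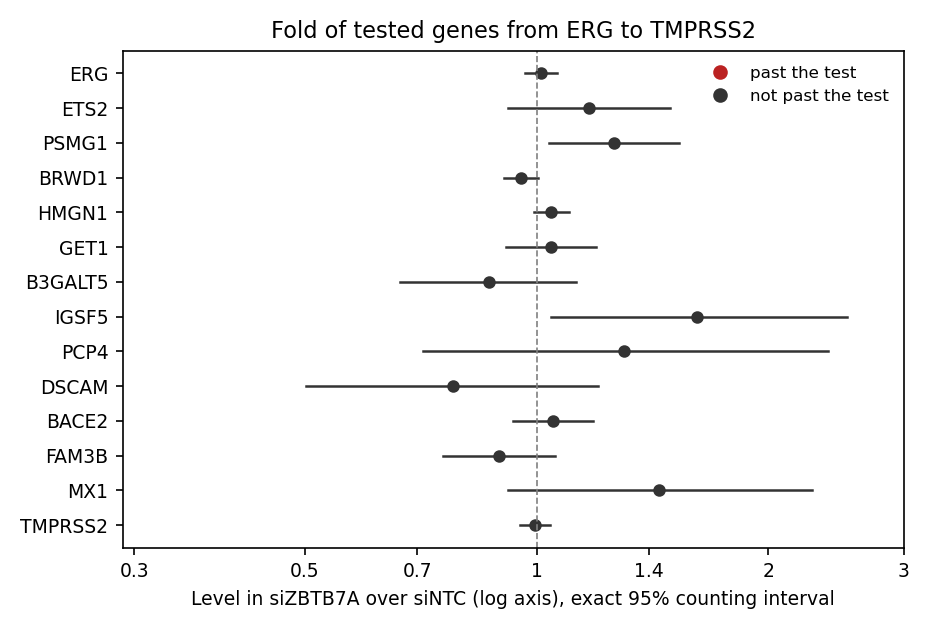
Fold of siZBTB7A over siNTC (horizontal axis, logarithmic) with its exact 95% counting interval for ERG and the 13 tested genes from ETS2 to TMPRSS2, in their order on chromosome 21. None of the 14 passed the test, and ERG at 1.014 and TMPRSS2 at 0.995 have the narrowest intervals.

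Regulators of ETS genes and proteins held 1 gene that passed. All 14 were tested, with 0 higher and 1 lower and a median fold of 0.971. Over all tested genes 4.97% passed, and 19.3% of those at a mean of at least 100 CPM, where USP9X lay at 309 CPM. USP9X, a deubiquitinase known to stabilise ERG protein, had 1922 and 1969 reads in siNTC and 1560 and 1654 in siZBTB7A, or 331 and 328 CPM against 284 and 292 CPM. Both siZBTB7A tables lay below the controls, at a fold of 0.874 (0.834 to 0.916; edgeR adjusted p = 7.41e-06). With the GC and length offset the log2 fold shrank from -0.19 to -0.08 and the call was lost (adjusted p = 0.214), while CUL3, which encodes the ligase scaffold that SPOP binds, passed with that offset only (fold 1.125 with no offset). SPOP, the adaptor of an E3 ligase that targets ERG, was at 0.932 (0.838 to 1.04) and did not pass. CIC, the repressor of the PEA3 genes, was at 1.058 (0.892 to 1.25), and its cofactor gene ATXN1L at 0.751 (0.614 to 0.917; edgeR adjusted p = 0.0741). COP1 and DET1, of the ligase that degrades PEA3 proteins, were at 0.964 and 1.047.

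Of 15 genes for feedback on ERK signalling and genes linked to the PEA3 group, 8 were tested, with 0 higher and 1 lower and a median fold of 0.915. Over all tested genes 4.97% passed, and 19.3% of those at a mean of at least 100 CPM, where CCND1 lay at 381 CPM. CCND1, which encodes cyclin D1, had 394 and 400.5 CPM in siNTC and 361 and 367 CPM in siZBTB7A, a fold of 0.916 (0.878 to 0.955; edgeR adjusted p = 0.00261). Its call was lost without the second siNTC table, without the first siZBTB7A table and with DESeq2 (adjusted p = 0.0728, 0.0787 and 0.101). By edgeR 3 genes of this list had an unadjusted p under 0.05, CCND1, DUSP4 and EPHA4. Of all 12848 tested genes 2303 did. DUSP4, from 36 and 58 summed reads, was at 1.705 (1.11 to 2.66; edgeR adjusted p = 0.129). EPHA4 was at 0.790 (0.652 to 0.955; edgeR adjusted p = 0.137), and neither passed. DUSP6, which encodes an ERK phosphatase, had 13 and 12 reads and was not tested. IER3 had no read and SPRY4 1 read.

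Of 24 partners and cofactors of ETS factors, 21 were tested, with 2 higher and 1 lower and a median fold of 0.980. Over all tested genes 4.97% passed (2.25% higher and 2.72% lower). At a mean of at least 100 CPM 19.3% passed, and EWSR1 and HOXB13 lay there at 308 and 401 CPM. EWSR1, a coactivator that binds ERG, stood at 332 and 312 CPM in siNTC and 302 and 286 CPM in siZBTB7A, a fold of 0.913 (0.871 to 0.957; edgeR adjusted p = 0.00783). HOXB13 and JUND were higher, the first a prostate lineage factor and the second a subunit of AP-1, which binds DNA beside ETS factors. HOXB13 went from 387 and 384 CPM to 412 and 421 CPM and JUND from 84.5 and 84.3 CPM to 95.8 and 98.2 CPM. With the GC and length offset none of these 3 passed (log2 fold -0.07 for EWSR1, 0.07 for HOXB13 and -0.003 for JUND). All of HOXB13, EWSR1 and JUND also lost the call without the second siZBTB7A table (adjusted p = 0.166, 0.298 and 0.244). Without the first siNTC table it was lost as well (adjusted p = 0.0503, 0.294 and 0.158). HOXB13 and JUND lost it without the second siNTC table (adjusted p = 0.0958 and 0.168) and JUND without the first siZBTB7A table (adjusted p = 0.107). With DESeq2, HOXB13 and EWSR1 lost it (adjusted p = 0.159 and 0.170), and JUND got no adjusted p. JUND also lost it with no filter on low counts (adjusted p = 0.0539). FOXA1, a pioneer factor of luminal cells, was at 1.057 (1.02 to 1.10; edgeR adjusted p = 0.0601) and passed only with limma-voom and with unstranded counts.

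Of 9 secretory genes linked to SPDEF, 7 were tested, and 0 passed in either direction by edgeR (3 at an unadjusted p under 0.05, AGR2, TFF1 and CREB3L4; 0 with any alternative run). The median fold was 1.011. Over all tested genes 4.97% passed, and 2303 of the 12848 had an unadjusted p under 0.05 by edgeR. AGR2, which encodes a disulfide isomerase of secretory cells, was at 0.954 (0.912 to 0.997), and XBP1, a factor for secretory capacity, at 1.011 (0.962 to 1.06).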

How the data were processed

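RNA-seq of 2 siNTC and 2 siZBTB7A tables was analysed. The authors deposited raw read counts per gene, not normalized, in the layout of STAR gene counts; STAR 2.4.2a and hg19/GRCh37 stand in the submitters' processing notes, and for the annotation release the sources used here give none. The strand column with 24.9 to 25.5 times the reads of the other was used. Rows naming no gene (50.8% to 51.2% of reads) were left out. GENCODE 29, on another build, gave names, lengths and GC content. Of 137 list entries 136 were matched (1 by synonym) and 1, PECAM1, was not.

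Tests used edgeR 4.0.16 in R 4.3.3 (TMM, filterByExpr, robust quasi-likelihood, group as the only term, Benjamini-Hochberg over all tested genes). The procedure was also run on simulated counts with read sampling only. These held no spread between cultures, so that run cannot check the test for such spread. Alternatives were DESeq2 1.42.0, its size factors, limma-voom (3.58.1), other filters, unstranded counts, a replicate block, each table left out, an exact binomial test, and an offset from a spline on GC content and length. Other steps used Python 3.11.15, scipy 1.17.1, numpy 2.4.6 and pandas 2.3.3. The members and lists were chosen with earlier results of these data known. Named genes were all ETS genes, ZBTB7A, TMPRSS2, list genes past the test (or, with none, the 2 with most reads) and the 3 nearest to ERG; other list genes named, and the markers, were chosen after their values were seen. Same-numbered tables share only a number.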

Additional observations from a re-analysis of the deposited data

How the results depend on the processing

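With 1 library per group, none of these settings measures biological spread. The count of 639 genes past the test was 85 with DESeq2, 361 with the GC and length offset and 303 to 373 with a table left out, where fewer reads were tested. It stayed within 1.5 times with the other 7 settings. DESeq2 gave no adjusted p for 11707 of the 12848 genes, so its counts cover fewer genes. Of the 6 tested members 3 got an adjusted p with DESeq2, EHF among them. The count of 1 member was 0 with DESeq2 (1 at an unadjusted p under 0.05, EHF) and 0 to 1 with a table left out. The count of 5 genes in the other lists was 1 with DESeq2, 2 with the offset and 2 to 3 with a table left out. Of these 5 genes CCND1 alone kept its call with the offset, and the other gene counted there was CUL3. The order of levels kept 8 of 10 places with unstranded counts and without the first siNTC table, and 10 without the second. Same-numbered tables deviated from their group means with a correlation of -0.013 over 5448 genes. The replicate block called 654 genes, 1 of them a member (EHF, log2 fold -0.14, edgeR adjusted p = 0.0110).

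Some log2 folds turned sign with 1 table left out. They ranged from -0.026 to 0.065 for ERG, -0.36 to 0.074 for ELF3, -0.041 to 0.082 for ELF1, -0.079 to 0.56 for ELF5, -0.027 to 0.013 for TMPRSS2, -0.021 to 0.058 for CTNNA1 and -0.023 to 0.067 for PSMA7. With the offset the log2 fold turned to -0.049 for SPDEF, -0.017 for ERF, -0.0026 for JUND and -0.017 for PSMA7. The cause was not tested. Over the named genes and alternatives, 270 log2 folds kept direction and side of the threshold, 28 lost the call and 13 turned sign.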

Other observations

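Reads on the opposite strand of the members were used above only in the alternative with unstranded counts. ELF3 had 153 such reads in siNTC and 135 in siZBTB7A, beside 876 on its own strand in all, and GENCODE 29 places the antisense RNA gene ELF3-AS1 across it. ETV4 had 10 opposite-strand reads and 2 on its own strand, and the coding gene DHX8 overlaps it on the other strand. ERG had 35 beside 6991, EHF 9 beside 5603 and SPDEF 5 beside 6045. ETS1, ETS2, ETV5 and ETV6 had no opposite-strand read.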
